A study of Homo sapiens with 11 samples.

Results

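The genes described here are those of MHC class I antigen presentation, 9 of the 28152 gene symbols in the deposited tables. They were taken by symbol. HLA-B, HLA-C and HLA-E encode class I heavy chains, and B2M encodes the light chain. TAP1, TAP2 and TAPBP encode the peptide transporter and its loading partner, and PSMB8 and PSMB9 encode subunits of the immunoproteasome. Their transcripts were measured by RNA sequencing of 11 tumours grown in mice from BT-474, a human breast cancer line labelled as positive for hormone receptors and HER2.

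All tumours grew in the fourth mammary fat pad of female athymic nude mice, which lack mature T cells, and were started from cells in Matrigel and RPMI-1640. Each mouse had been implanted with estradiol (0.72 mg, released slowly over 90 days). Tumours could enter the study above 95 mm3, and the age of the mice is not given in the sources used here. The 6 vehicle tumours came from mice given mannitol in water under the skin every 4 days. The 5 evexomostat tumours came from mice given evexomostat (SDX-7320), an inhibitor of methionine aminopeptidase 2 (MetAP2), at 12 mpk in the same solution, by the same route and at the same interval. MetAP2 removes the first methionine from many new proteins. All libraries are labelled as day 33. Samples are named here by group and label number (001, 003, 004, 005, 006 and 007 for vehicle, and 002, 003, 004, 005 and 007 for evexomostat). The labels number the tumours but do not say that each came from a different mouse, so p-values measure the spread between these samples.

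Class I molecules show peptides from inside a cell to cytotoxic T cells and also engage receptors of natural killer cells. Proteasomes cut proteins into peptides, the TAP transporter moves them into the endoplasmic reticulum, and tapasin (the product of TAPBP) helps to load them on a heavy chain held by beta-2 microglobulin. Interferon gamma raises most genes of this pathway, through IRF1 and the transactivator NLRC5, and swaps in the immunoproteasome subunits. Breast tumours can lower class I genes and so be seen less by T cells. The comparison asked how the RNA levels of these genes differed between evexomostat and vehicle tumours.

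The 3 abundant members, B2M, HLA-B and HLA-C, were the ones measured at depth, and the sequences just before their start sites are shown for description. Each is the 250 bases upstream of the start, 5′ to 3′, from the RefSeq table on GRCh38.p14, not from the tumours. In all, 8 of 9 members had an entry in that table. Capitals mark matches, on either strand, to AANNGAAA (the paired core of sites for interferon regulatory factors), CCAAT (the box bound by NF-Y) and TGACG (the core of the cAMP response element).

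B2M (chr15:44711267-44711516, plus strand): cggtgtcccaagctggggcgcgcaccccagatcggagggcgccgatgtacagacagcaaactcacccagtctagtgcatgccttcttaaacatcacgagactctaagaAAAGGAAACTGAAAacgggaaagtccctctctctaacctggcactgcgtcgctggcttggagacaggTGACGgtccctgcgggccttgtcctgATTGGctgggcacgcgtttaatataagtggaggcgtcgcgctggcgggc
HLA-B (chr6:31357180-31357429, minus strand): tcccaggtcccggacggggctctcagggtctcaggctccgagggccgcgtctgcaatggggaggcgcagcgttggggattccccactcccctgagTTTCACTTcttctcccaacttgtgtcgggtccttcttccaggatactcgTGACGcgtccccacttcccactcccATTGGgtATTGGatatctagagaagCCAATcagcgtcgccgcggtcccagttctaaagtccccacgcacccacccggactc
HLA-C (chr6:31272093-31272342, minus strand): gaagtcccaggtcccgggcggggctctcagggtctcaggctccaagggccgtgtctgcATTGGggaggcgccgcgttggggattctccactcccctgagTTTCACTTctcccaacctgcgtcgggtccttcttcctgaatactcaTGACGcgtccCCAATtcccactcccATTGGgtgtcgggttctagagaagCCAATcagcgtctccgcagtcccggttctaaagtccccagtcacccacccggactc

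AANNGAAA was found in 20.3% of 35116 such promoters, CCAAT in 32.0% and TGACG in 21.2%. All 3 motifs occurred in all 3 sequences. They were not particular to these genes. Among the other members, AANNGAAA also occurred in an entry of TAP1, TAP2 and TAPBP, and CCAAT in an entry of TAP1 and PSMB9. TGACG also occurred in an entry of TAP2, PSMB8 and PSMB9. Counted back from the start site, AANNGAAA began at -142 and -136 in B2M (2 overlapping matches), at -155 in HLA-B and at -151 in HLA-C. TGACG began at -75 in B2M, at -106 in HLA-B and at -105 in HLA-C. CCAAT began at -49 in B2M, at -81, -74 and -56 in HLA-B, and at -192, -95, -80 and -56 in HLA-C. The HLA-B and HLA-C sequences had the same base in 226 of 254 aligned columns (89.0%), and HLA-B and B2M in 133 of 281 (47.3%). A match is a description of the letters and not a measured binding site, and a link between the motifs and the RNA levels was not tested.

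The libraries held 22808033 to 39249329 counts each. Vehicle 001 differed from the rest: its top 100 genes took 23.9% of the counts, where they took 16.2% to 17.9% elsewhere, and its TMM scaling factor was 0.86, where the others had 0.956 to 1.08. Evexomostat 005 had a summed level of 10 skeletal muscle genes of 443.9 RPM (counts scaled to the same total in each library) against 3.88 to 51.6 RPM in the other libraries. Of 10 luminal breast markers, 6 had a mean of at least 1 RPM. KRT8 had a mean of 332 RPM and ERBB2, which encodes HER2, 53.7 RPM. ESR1 (estrogen receptor) had 0.285 RPM, PGR (progesterone receptor) 0.0655 RPM, KRT19 0.803 RPM and CDH1 (E-cadherin) 0.456 RPM. The levels of ESR1 and PGR do not match the label of positive hormone receptors, and KRT19 and CDH1 were low as well. Whether the ERBB2 level matches the HER2 label was not tested, and neither was the identity of the cells. Among 18 leukocyte markers, 8 had a mean of at least 1 RPM, the B and T cell genes MS4A1 and CD3E were at 0 in every library, and 0 of the 11 tested were called. The summed leukocyte level was 79.4 to 144.4 RPM in vehicle and 117.6 to 137.3 RPM in evexomostat tumours, and the part of host cells in the members' levels was not tested.

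The 9 members fell into 3 levels. B2M had a mean of 3403 RPM over the 11 libraries, HLA-B 1506 RPM and HLA-C 461 RPM. TAP2 had 1.501 RPM and TAPBP 1.33 RPM. TAP1 had 0.172 RPM, PSMB8 0.166 RPM, PSMB9 0.0490 RPM and HLA-E 0.0153 RPM, close to or under the 0.0764 to 0.132 RPM that 3 counts make in one library. Divided by transcript length, the means were 1996 RPM per kb for B2M, 973 for HLA-B and 297 for HLA-C, and the counts kept this order in every tumour. On the same scale the next were TAPBP at 0.353 and TAP2 at 0.264 RPM per kb, whose RPM ranges overlapped, and then PSMB8 at 0.123, PSMB9 at 0.0619, TAP1 at 0.0581 and HLA-E at 0.0059 RPM per kb, which rest on a few counts each and are not ordered by these data.

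**Figure D1:**
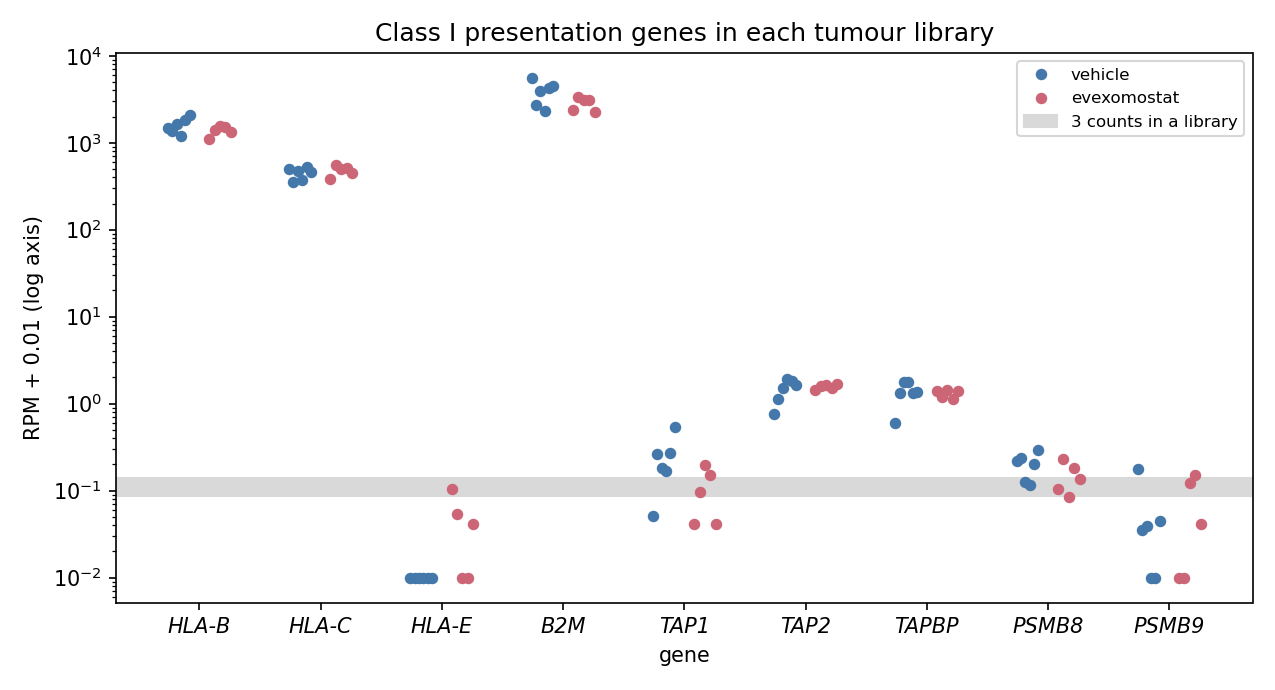
RPM plus 0.01 on a log axis for each of the 9 genes, with 1 point per tumour library and a grey band for the RPM that 3 counts make. B2M, HLA-B and HLA-C lie at 349.7 RPM or higher in all 11 libraries, TAP2 and TAPBP lie near 1 RPM, and HLA-E, TAP1, PSMB8 and PSMB9 lie around or under the band.

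The low members shared a stretch of chromosome 6 in which most genes were low. In gene order, 8 of the 9 members lie between HLA-F and TAPBP, and B2M, on chromosome 15, lies outside. Of the 135 protein-coding genes in that stretch, 113 (83.7%) had a mean under 1 RPM and 91 had at most 10 counts in any library. Only HLA-B and HLA-C reached 100 RPM. Without the 8 members, 109 of 127 genes (85.8%) were under 1 RPM and 0 reached 100 RPM. Of the 18693 protein-coding genes elsewhere, 31.6% were under 1 RPM, and of the 854 on chromosome 6 outside the stretch 36.8% were. The 50 genes before HLA-F were under 1 RPM in 72.0% of cases and the 50 after TAPBP in 44.0%.

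The stretch holds genes that dividing cells are known to use. RPS18, a protein of every small ribosomal subunit, lies in it and had 1 to 8 counts per library, a mean of 0.147 RPM. It was the lowest of 77 ribosomal protein genes, whose other 76 had a median of 859 RPM, and 3 of those 76 were under 100 RPM. The second lowest was RPS10, with a mean of 2.08 RPM and 31 to 120 counts per library. RPS10 lies outside the stretch, past TAPBP, so a low ribosomal protein gene was not particular to the stretch. RPL10A, also past TAPBP, had 595 RPM. TUBB, a beta tubulin, had 63.0 RPM and RNF5, a ubiquitin ligase of the endoplasmic reticulum, 31.2 RPM. These genes were chosen after their values were seen. The low counts of HLA-E, TAP1, TAP2, TAPBP, PSMB8 and PSMB9 are therefore given as listed values and not as evidence that the tumours lacked these transcripts. Why the stretch was low was not tested. How the authors counted reads that match several places, and how they treated mouse reads, is not given in the sources used here.

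**Figure D2:**
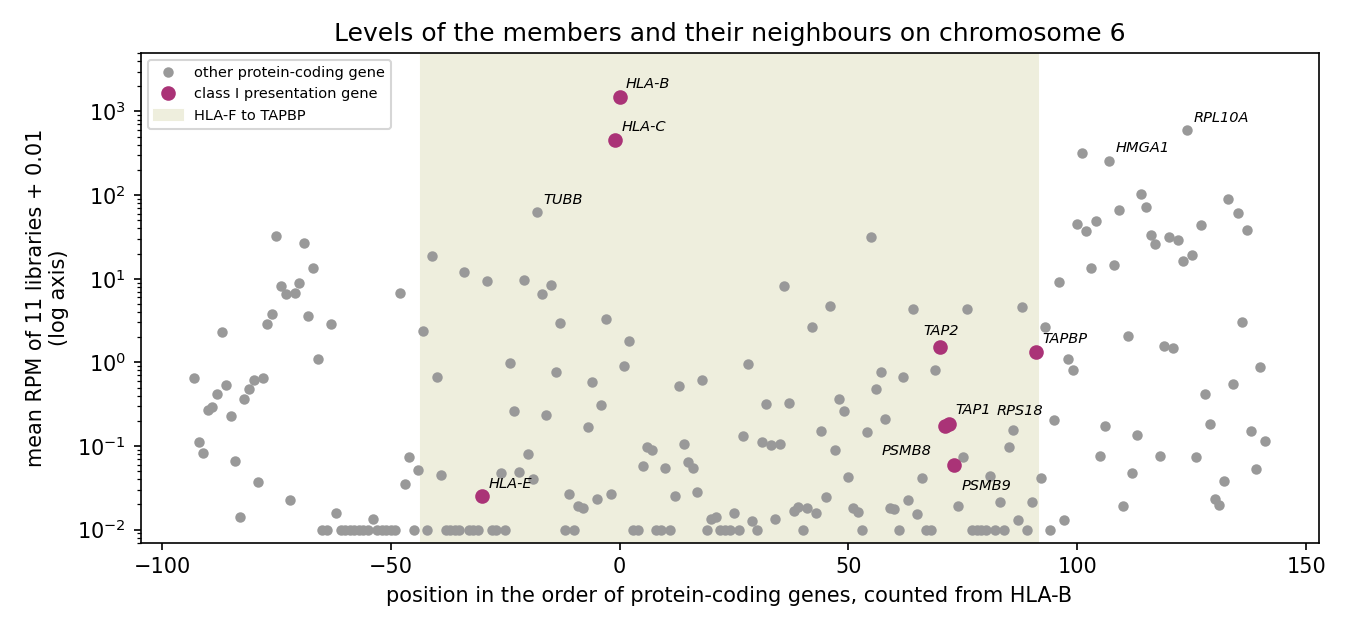
Mean RPM of the 11 libraries plus 0.01 on a log axis against place in the order of protein-coding genes on chromosome 6, counted from HLA-B, with the members in purple and the stretch from HLA-F to TAPBP shaded. In the shaded stretch 113 of 135 genes lie under 1 RPM and only HLA-B and HLA-C lie above 100 RPM.

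The share of each transcript that another gene's transcript also holds was taken from GENCODE release 29 in stretches of 100 bases. It was 0 of 1448 stretches for HLA-B and 4 of 1455 (0.275%) for HLA-C. B2M, TAP1, TAPBP and PSMB8 shared 0 stretches, HLA-E shared 0.6%, PSMB9 5.77% and TAP2 35.2%. These are reference alleles, and class I genes vary between people, so the counts of HLA-B and HLA-C may hold reads of each other or of other class I genes and their separate levels are uncertain. PSMB9 overlaps an antisense gene and TAP2 another gene model, and the use of strand in counting is not given in the sources used here.

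None of the members passed the test between evexomostat and vehicle. Of the 9, 5 had enough counts to be tested (B2M, HLA-B, HLA-C, TAP2 and TAPBP). With edgeR's quasi-likelihood test and Benjamini-Hochberg adjustment over the 16653 genes tested, 0 of these 5 had an adjusted p under 0.05, where 101 of all tested genes did (0.606%, with 0.432% lower). At an unadjusted p under 0.05 there was 1 member, B2M, which was lower, beside 13.4% of all tested genes (8.55% lower), and DESeq2, which called 3.9% of all tested genes, called 0 members. Without vehicle 001 edgeR called 5.22% of all genes tested and 0 members. The tested members had 4 negative and 1 positive log2 fold changes with a median of -0.15, and all tested genes had a median of -0.04 with 55.4% negative. The 2 groups of CPM (counts scaled to a common total after TMM scaling) overlapped for all 5, where they did not overlap for 2.97% of all tested genes.

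B2M, the light chain that every class I heavy chain needs to reach the surface, had the largest difference among the tested members. Its CPM in vehicle tumours was 6456 in 001, 2775 in 003, 3933 in 004, 2378 in 005, 4066 in 006 and 4645 in 007. In evexomostat tumours it was 2353 in 002, 3138 in 003, 3008 in 004, 2924 in 005 and 2232 in 007. The 4 highest values were vehicle tumours, while vehicle 003 and 005 lay within the evexomostat range. The mean was 4042 ± 1455 CPM (SD, n = 6) in vehicle and 2731 ± 410 CPM (SD, n = 5) in evexomostat tumours. The log2 fold change was -0.57 (SE 0.24, 95% interval -1.09 to -0.04), which edgeR gave an unadjusted p of 0.0355 and an adjusted p of 0.324. Without vehicle 001 it was -0.38 with an adjusted p of 0.231, a change of over 1.5 times.

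HLA-B, one of the classical heavy chains, had CPM in vehicle tumours of 1715 in 001, 1364 in 003, 1644 in 004, 1228 in 005, 1776 in 006 and 2203 in 007. In evexomostat tumours it had 1089 in 002, 1302 in 003, 1522 in 004, 1458 in 005 and 1307 in 007. Again the 4 highest values were vehicle tumours and vehicle 003 and 005 lay within the evexomostat range. The log2 fold change was -0.31 (SE 0.17, 95% interval -0.68 to 0.06). The edgeR unadjusted p was 0.0922 and the adjusted p 0.468, so HLA-B was not called and its interval included 0.

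HLA-C, the other classical heavy chain here and a main ligand of killer-cell immunoglobulin-like receptors, had CPM in vehicle tumours of 581.9 in 001, 354.2 in 003, 469.1 in 004, 383.8 in 005, 511.7 in 006 and 481.9 in 007. In evexomostat tumours it had 376.5 in 002, 506.8 in 003, 483.4 in 004, 484.7 in 005 and 441.2 in 007. The evexomostat values all lay inside the vehicle range. The log2 fold change was -0.02 (SE 0.15, 95% interval -0.34 to 0.31) with an edgeR adjusted p of 0.981, and its sign depended on the scaling (0.03 with upper quartile scaling, 0.06 without vehicle 001). In bulk tumour RNA, fewer cells of a type and less RNA per cell cannot be told apart for any of these genes.

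**Figure D3:**
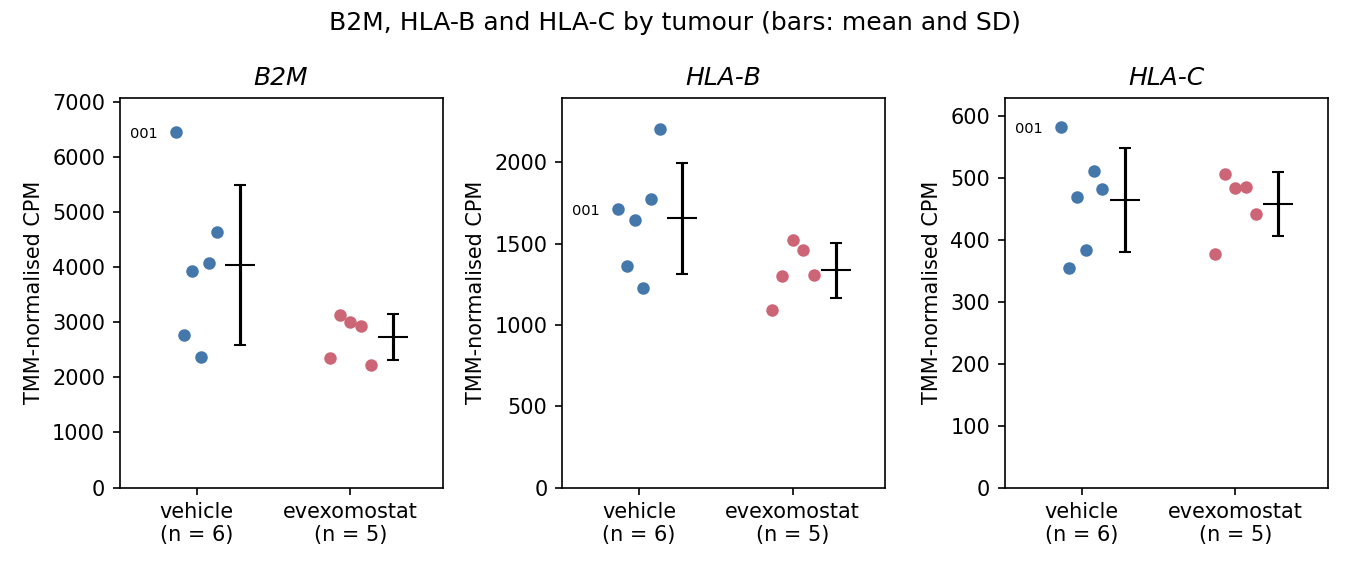
TMM-normalised CPM of B2M, HLA-B and HLA-C in each tumour, with 1 point per library, bars for the mean and SD, and vehicle 001 marked. The groups overlap in all 3 panels, and vehicle 001 at 6456 CPM is the highest B2M value.

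The 3 abundant members were then compared with each other inside each library, where depth and scaling cancel. These ratios were chosen after the values were seen and are given with no test. The counts of B2M over HLA-C were 11.1, 7.83, 8.38, 6.19, 7.95 and 9.64 in vehicle 001, 003, 004, 005, 006 and 007, and 6.25, 6.19, 6.22, 6.03 and 5.06 in evexomostat 002, 003, 004, 005 and 007. Only vehicle 005 lay in the evexomostat range. The mean ratio was 8.52 ± 1.68 (SD, n = 6) against 5.95 ± 0.505 (SD, n = 5), or 0.699 of vehicle, and 0.744 without vehicle 001.

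HLA-B over HLA-C was 2.95, 3.85, 3.51, 3.20, 3.47 and 4.57 in the vehicle tumours and 2.89, 2.57, 3.15, 3.01 and 2.96 in the evexomostat tumours, in the same order of libraries. Vehicle 001 was the only vehicle tumour inside the evexomostat range. Without it the vehicle ratios began at 3.20 and the evexomostat ratios ended at 3.15, and the ratio of the means went from 0.812 to 0.784. How often other gene pairs separate in this way was not counted, so the gap is given as a value only. B2M over HLA-B was 1.94 to 3.77 in vehicle and 1.71 to 2.41 in evexomostat tumours. Its ratio of means was 0.848 with vehicle 001 and 0.954 without it, so this pair differed little once that library was left out. A ratio shows that the genes differed unequally and not which of them changed.

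**Figure D4:**
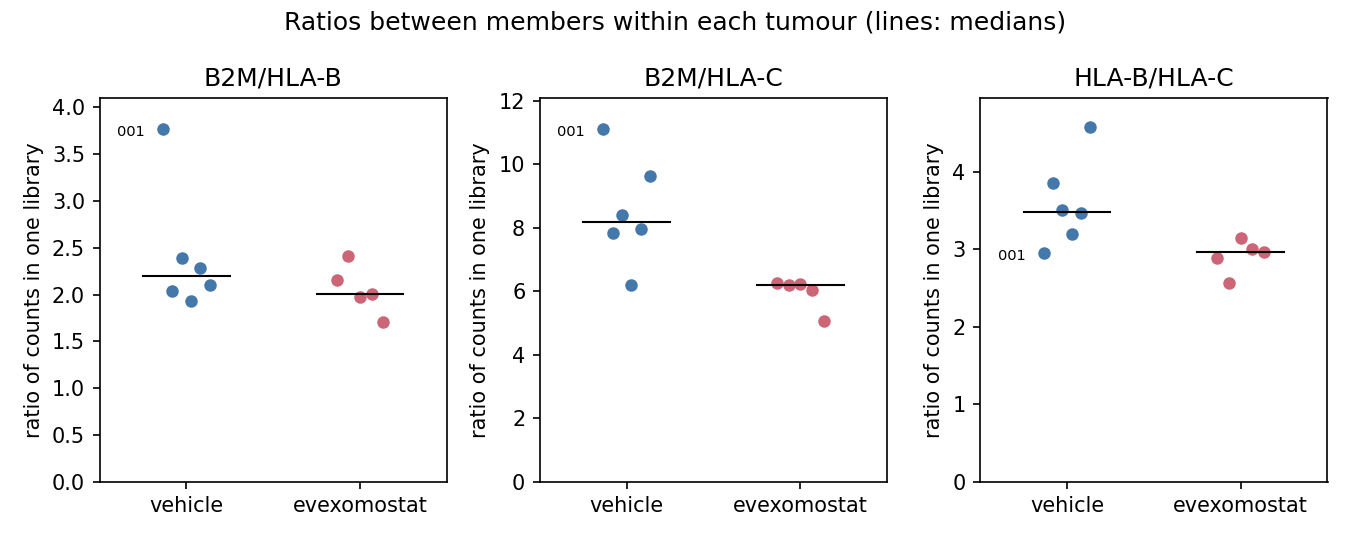
Ratios of counts between members in each library, with 1 point per tumour, lines for group medians and vehicle 001 marked. B2M over HLA-C spans 6.19 to 11.1 in vehicle and 5.06 to 6.25 in evexomostat tumours, and the B2M over HLA-B groups lie over each other apart from vehicle 001.

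Across the 11 tumours, with both groups pooled, the log2 CPM of the 3 abundant members was positively correlated in each pair. HLA-B and HLA-C did not pass by rank. The points share a scaling factor per library, a difference between the groups also enters these values, and 3 pairs were computed. B2M and HLA-B had Pearson's r = 0.809 (permutation p = 0.00246, adjusted 0.00738) and Spearman's rho = 0.836 (permutation p = 0.00196, adjusted 0.00588), and r was 0.869 without the 2 tumours farthest from the median. B2M and HLA-C had r = 0.755 (permutation p = 0.00726, adjusted 0.0109) and rho = 0.736 (permutation p = 0.0131, adjusted 0.0196), and r was 0.646 without the 2 farthest. HLA-B and HLA-C had r = 0.619 (permutation p = 0.0414, adjusted 0.0414) and rho = 0.564 (permutation p = 0.0762, adjusted 0.0762), and r was 0.656 without the 2 farthest. Without vehicle 001 (n = 10), r was 0.912 for B2M and HLA-B (permutation p adjusted 0.00075), 0.632 for B2M and HLA-C (permutation p adjusted 0.0671) and 0.597 for HLA-B and HLA-C (permutation p adjusted 0.0671), so the last 2 pairs missed the threshold without that library.

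Within the 6 vehicle tumours alone, B2M and HLA-C had r = 0.933 (exact permutation p = 0.0153, adjusted 0.0458), B2M and HLA-B r = 0.762 (exact permutation p = 0.0708, adjusted 0.106) and HLA-B and HLA-C r = 0.699 (exact permutation p = 0.122). Spearman's rho was 0.886 for B2M and HLA-C (exact permutation p adjusted 0.0875) and 0.829 for B2M and HLA-B (exact permutation p adjusted 0.0875). For HLA-B and HLA-C it was 0.714 (exact permutation p adjusted 0.136), so no pair passed by rank in these tumours. No correlation is given over the 5 evexomostat tumours. By rank among the 11 tumours, vehicle 001 was rank 1 for B2M and HLA-C and rank 3 for HLA-B, vehicle 006 was rank 3 for B2M and rank 2 for both heavy chains, and evexomostat 002 was rank 10, 11 and 10 for B2M, HLA-B and HLA-C.

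The transport and loading genes had low counts, and of these TAP2 and TAPBP had enough to be tested. TAP2, one subunit of the peptide transporter, had 18, 44, 52, 73, 56 and 46 counts in the vehicle libraries and 46, 36, 43, 43 and 53 in the evexomostat libraries, in the order of label numbers. Vehicle 001 was lowest and vehicle 005 highest, and the evexomostat values lay between them. Its log2 fold change was 0.01 (SE 0.23, 95% interval -0.49 to 0.52) with an edgeR adjusted p of 0.990, and its sign depended on the fit (-0.02 with quality weights, -0.09 without vehicle 001). TAPBP, the tapasin gene, had 14, 52, 62, 66, 41 and 39 counts in vehicle and 44, 27, 38, 32 and 44 in evexomostat libraries. Vehicle 001 was again lowest. The log2 fold change was -0.15 (SE 0.25, 95% interval -0.70 to 0.40) with an edgeR adjusted p of 0.867. It was -0.27 without vehicle 001, -0.06 without vehicle 004 or vehicle 005 and -0.09 without evexomostat 005.

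TAP1, the partner subunit of TAP2, had 1, 10, 6, 6, 8 and 15 counts in the vehicle libraries and 1, 2, 5, 4 and 1 in the evexomostat libraries. It did not pass the count filter. The 5 highest counts were vehicle libraries, and vehicle 001 was as low as evexomostat 002 and 007. The groups overlapped. A difference was not detectable in counts this low.

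The remaining members had single-digit counts throughout. PSMB8, which replaces the chymotrypsin-like subunit PSMB5 in the immunoproteasome, had 5, 9, 4, 4, 6 and 8 counts in vehicle and 3, 5, 2, 5 and 4 in evexomostat libraries. PSMB9, which replaces PSMB6, had 4, 1, 1, 0, 0 and 1 counts in vehicle and 0, 0, 3, 4 and 1 in evexomostat libraries. HLA-E, a heavy chain that natural killer cells read through NKG2A, had 0 counts in all 6 vehicle libraries and 3, 1, 0, 0 and 1 in evexomostat libraries. No fold is given for these genes, since their counts lie at or near the floor of 3 counts.

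The authors' deposited table gave log2 fold changes of -0.45 for B2M (their p 0.0465, their FDR 0.572), -0.21 for HLA-B and 0.09 for HLA-C. In the authors' deposited table HLA-E had 3.25 (p 0.0559, FDR 0.618) and TAP1 -1.30 (p 0.0525, FDR 0.605), and these 2 values rest on the small counts above. The other members there were 0.09 for TAP2, -0.07 for TAPBP, -0.45 for PSMB8 and 0.51 for PSMB9. The authors' deposited table had 268 genes with an FDR under 0.05 (0.952%) and none of the members.

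Other genes of the pathway lie outside the low stretch for the most part. Over the lists, 59 of 68 non-members were tested, 1 passed with edgeR (IFNGR1, lower, beside 0.606% of all tested genes) and 14 had an unadjusted p under 0.05 (beside 13.4%). DESeq2 called 5, all lower (CTSS, ERAP1, IFNAR2, IFNGR1 and ULBP2, beside 3.9%). Without vehicle 001 edgeR called 8, all lower (ERAP1, IFNAR2, IFNGR1, JAK1, NFKB1, RELA, SOCS3 and ULBP2, beside 5.22%). In these lists 44 log2 fold changes were negative and 15 positive, with a median of -0.12, beside -0.04 and 55.4% negative for all tested genes. The lists were chosen with earlier results of these data known.

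Among 8 genes of peptide loading and trimming, 0 passed with edgeR (2 at an unadjusted p under 0.05, beside 13.4% of all tested genes). DESeq2 called 1 (ERAP1, beside 3.9%). All 8 log2 fold changes were negative, with a median of -0.27, beside 55.4% negative and a median of -0.04 for all tested genes. ERAP1, the aminopeptidase that trims peptides in the endoplasmic reticulum, had 94.2 ± 23.0 CPM (SD, n = 6) in vehicle and 57.2 ± 10.01 CPM (SD, n = 5) in evexomostat tumours. Its log2 fold change was -0.72 (SE 0.19) with an edgeR adjusted p of 0.117 and a DESeq2 adjusted p of 0.0206. It passed in 4 of 22 alternatives, among them the fit without vehicle 001 (adjusted p 0.0098), whose CPM of 53.9 was the lowest of the vehicle group. TAPBPL, a tapasin-related peptide editor, differed by -0.61 on the log2 scale (SE 0.23, adjusted p 0.265 by edgeR), and by -0.35 without vehicle 006. CANX, the chaperone calnexin that folds heavy chains, had 1573 ± 373 CPM (SD, n = 6) and 1345 ± 209 CPM (SD, n = 5) or -0.23 on the log2 scale (SE 0.19, adjusted p 0.671 by edgeR), with -0.11 without vehicle 007 and -0.13 without evexomostat 003.

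Immunoproteasome genes outside the stretch were measured at ample depth and were not called. Of PSMB10, PSME1 and PSME2, 0 of 3 passed (0 at an unadjusted p under 0.05, and 0 with DESeq2). All were negative (beside 55.4% of all tested genes), with a median log2 fold change of -0.22. PSMB10, the inducible subunit that replaces PSMB7, had 129.4 CPM in vehicle 001, 40.2 to 53.7 CPM in the other vehicle tumours and 38.8 to 62.5 CPM in evexomostat tumours. PSME1 and PSME2, the alpha and beta subunits of the activator PA28, had 551.6 and 507.1 CPM in vehicle 001. For both, the other 5 vehicle tumours and the evexomostat tumours overlapped. The log2 fold change was -0.29 (SE 0.28) for PSMB10, -0.22 (SE 0.20) for PSME1 and -0.11 (SE 0.19) for PSME2, and all of these turned positive without vehicle 001. The constitutive subunits and PSME3 had 0 of 4 called (0 at an unadjusted p under 0.05, and 0 with DESeq2), 2 negative and 2 positive. Vehicle 001 was thus the highest vehicle library for B2M, PSMB10, PSME1, PSME2 and PSMB6 and the lowest for TAP2, TAPBP, ERAP1 and PSME3.

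Of 13 transactivators that bind class I promoters or drive them, 0 passed with edgeR and 0 with DESeq2. At an unadjusted p under 0.05 there were 3 (beside 13.4% of all tested genes), and 10 were negative (beside 55.4%), with a median of -0.09. NLRC5, the class I transactivator, named outside the rule after its values were seen, had 75.5 ± 27.3 CPM (SD, n = 6) in vehicle and 74.9 ± 10.9 CPM (SD, n = 5) in evexomostat tumours, a log2 fold change of -0.01 (SE 0.25, 95% interval -0.55 to 0.53). Its near-equal means rest on vehicle 001, which had 29.6 CPM. The other vehicle tumours had 67.1 to 112.4 CPM and the evexomostat tumours 64.9 to 90.5 CPM. IRF1, whose family binds the AANNGAAA type of site shown above, had 115.8 ± 20.02 CPM (SD, n = 6) against 82.7 ± 19.1 CPM (SD, n = 5), or -0.49 on the log2 scale (SE 0.17, adjusted p 0.227 by edgeR). The NF-kB subunits NFKB1 and RELA had -0.38 (SE 0.16) and -0.27 (SE 0.21), and neither passed with all libraries. Without vehicle 001 both passed with edgeR, NFKB1 at -0.48 (adjusted p 0.0278) and RELA at -0.41 (adjusted p 0.0413).

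Of 12 genes of interferon signalling, 1 fell with edgeR (beside 0.606% of all tested genes called) and the other 11 did not pass. DESeq2 called 2 (IFNGR1 and IFNAR2, beside 3.9%). In all 9 were negative (beside 55.4% of all tested genes), 6 had an unadjusted p under 0.05 (beside 13.4%) and the median was -0.27. IFNGR1, the ligand-binding chain of the interferon gamma receptor, had CPM in vehicle tumours of 125.9 in 001, 115.8 in 003, 91.3 in 004, 87.7 in 005, 101.2 in 006 and 114.3 in 007. In evexomostat tumours it had 59.7 in 002, 68.4 in 003, 72.6 in 004, 77.8 in 005 and 59.96 in 007. Every evexomostat tumour was below every vehicle tumour, as for 1.64% of all tested genes. The log2 fold change was -0.65 (SE 0.13) with an edgeR adjusted p of 0.0478. The call sat at the edge of the threshold and was lost in 14 of 22 alternative analyses, where the value stayed negative. It was lost when any one of vehicle 003, 004, 006 or 007 or any one evexomostat tumour was left out, with adjusted p up to 0.177, and it was kept without vehicle 001 (adjusted p 0.0158).

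IFNAR2, a chain of the type I interferon receptor, had 70.5 ± 3.94 CPM (SD, n = 6) against 50.8 ± 3.74 CPM (SD, n = 5), lower with no overlap, as for 1.64% of all tested genes. It had a log2 fold change of -0.47 (SE 0.10) and an edgeR adjusted p of 0.0581. It passed in 4 of 22 alternatives, with an adjusted p of 3.38e-05 in DESeq2 and of 0.0132 without vehicle 001. Its adjusted p ranged up to 0.196 over the alternatives.

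Class I-like genes and ligands of killer-cell receptors gave 0 calls with edgeR. DESeq2 called 1, ULBP2 (beside 3.9% of all tested genes). Of 7 class I-like genes 5 were tested, 0 had an unadjusted p under 0.05 and 4 were negative (beside 55.4% of all tested genes), with a median of -0.28. MR1, which presents vitamin B metabolites, differed by -0.45 on the log2 scale (SE 0.23, adjusted p 0.428 by edgeR), HFE, the iron regulator, -0.28, and FCGRT, the neonatal Fc receptor, 0.35. HFE was -0.15 without vehicle 001 and -0.16 without vehicle 007, and FCGRT was 0.14 without evexomostat 003. Of 8 ligands of the activating receptor NKG2D, 7 were negative (beside 55.4%) with a median of -0.07. An unadjusted p under 0.05 was seen for 2 of them (beside 13.4%). ULBP2 had 32.0 ± 3.70 CPM (SD, n = 6) against 20.3 ± 3.91 CPM (SD, n = 5), lower with no overlap, as for 1.64% of all tested genes. It had a log2 fold change of -0.66 (SE 0.15) and an edgeR adjusted p of 0.0679. It passed in 3 of 22 alternatives, with an adjusted p of 0.00253 in DESeq2 and of 0.0312 without vehicle 001. RAET1L had -0.73 (SE 0.29, edgeR adjusted p 0.285).

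Class II molecules present peptides from outside the cell. The HLA-D genes of this list were sparse, with a mean of 4.38 RPM for HLA-DRB1 and less for the others. CTSS had a mean of 73.7 RPM, and CD74 and CIITA, named outside the rule, had 49.0 and 6.24 RPM. Of the 13 in the list, 6 were tested and 0 passed with edgeR (1 at an unadjusted p under 0.05, beside 13.4% of all tested genes). DESeq2 called 1 (CTSS, lower, beside 3.9%) and 5 were positive, where 55.4% of all tested genes were negative. HLA-DRA had 6 to 45 counts per library and differed by 0.87 on the log2 scale (SE 0.44, adjusted p 0.415 by edgeR). It was 0.41 without evexomostat 003, which held the 45 counts. CTSS, the protease cathepsin S, had 87.7 ± 10.7 CPM (SD, n = 6) against 57.6 ± 13.7 CPM (SD, n = 5), lower with no overlap, as for 1.64% of all tested genes. It had a log2 fold change of -0.61 (SE 0.17), an edgeR adjusted p of 0.125 and a DESeq2 adjusted p of 0.0236. Of the 22 alternatives, only DESeq2 called CTSS. HLA-DPA1, HLA-DPB1 and HLA-DOA, in the low stretch, were at 0 counts in all 11 libraries.

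**Figure D5:**
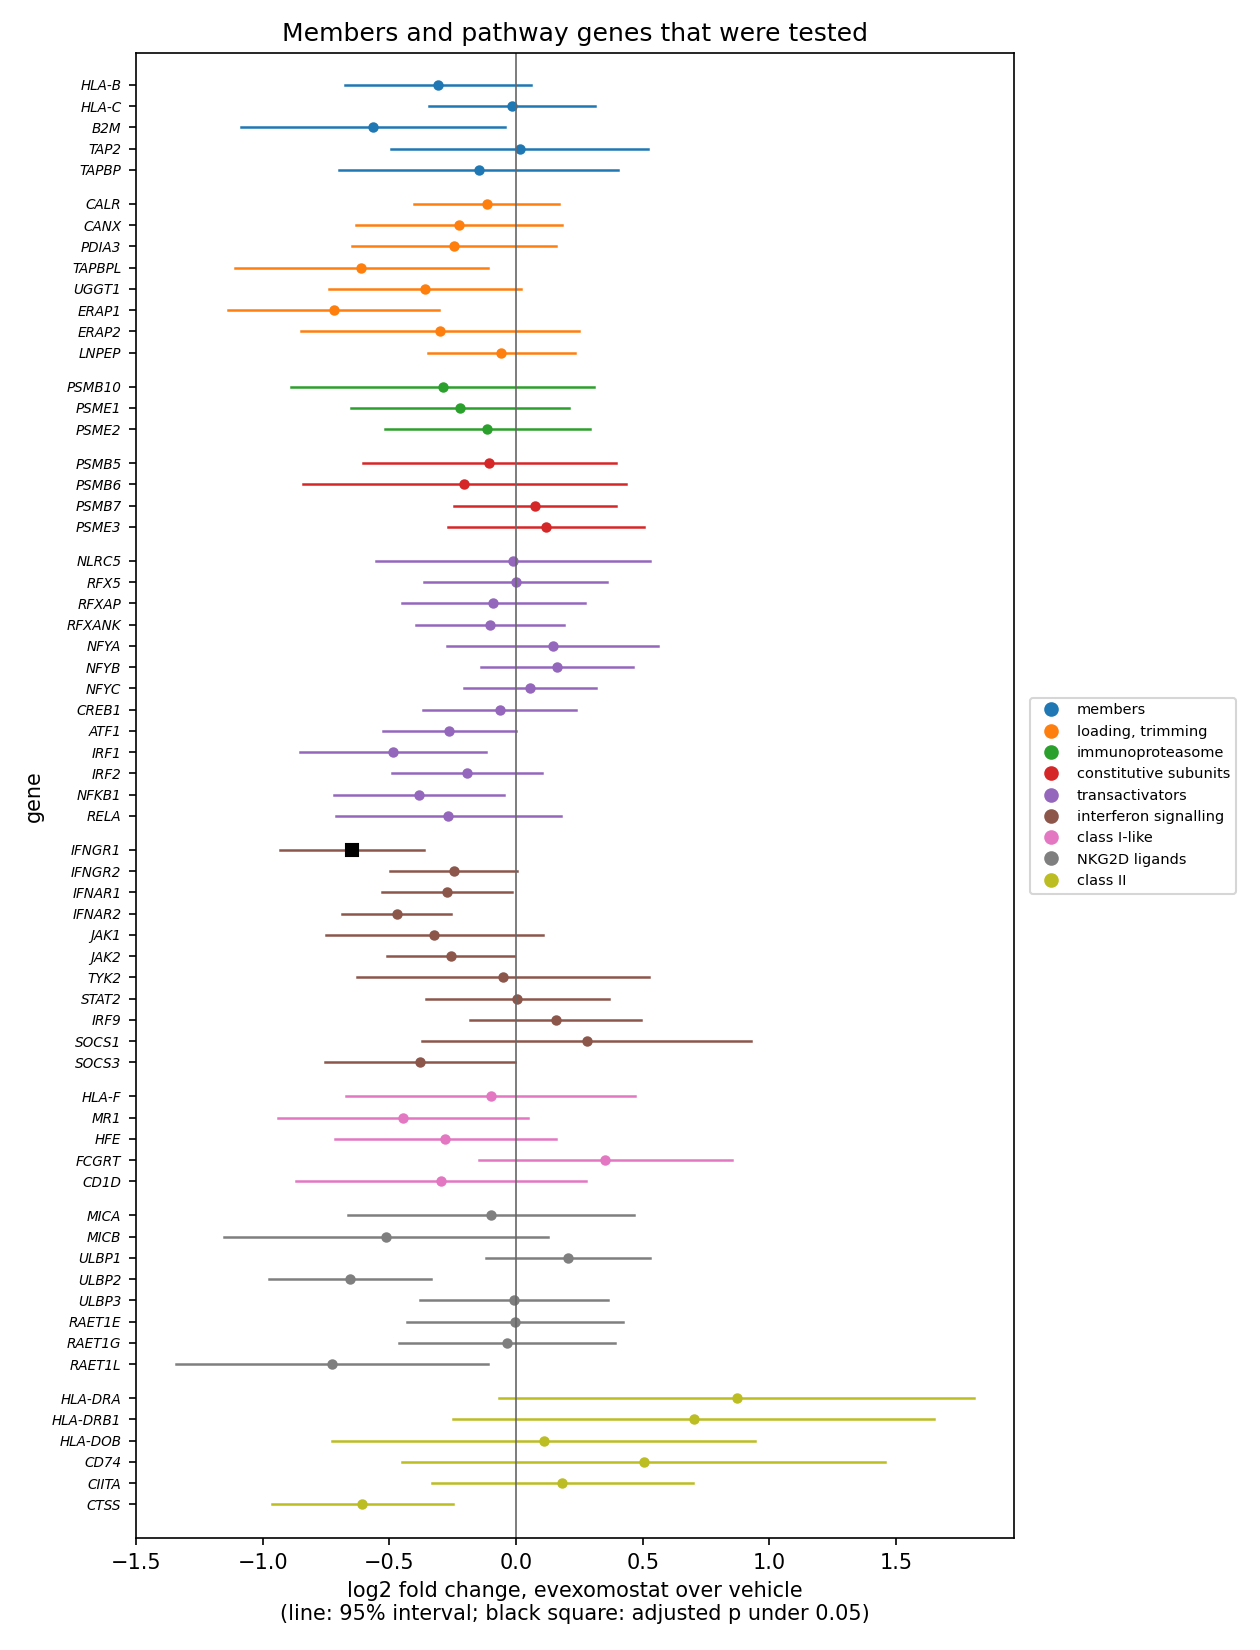
Log2 fold change of evexomostat over vehicle for the 5 tested members and the other tested pathway genes reported here, with lines for 95% intervals and colours for lists. IFNGR1 at -0.65 carries the one black square, and the intervals of HLA-B, HLA-C, TAP2 and TAPBP cross 0.

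The tested genes whose profile over the 11 libraries was most like the mean of the 5 tested members (each member's log2 CPM standardised first) were ACVR2A (Pearson's r = 0.94), STAR (0.94), CCN4 (0.92), H2BS1 (0.92), IGFBP4 (0.92) and KCNT2 (0.92). ACVR2A is an activin receptor, STAR a cholesterol carrier of mitochondria, CCN4 a matricellular protein, IGFBP4 a binding protein of insulin-like growth factors and KCNT2 a potassium channel. TAP2 and TAPBP, with under 75 counts per library, weigh as much in that mean as B2M.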

How the data were processed

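RNA from 6 vehicle and 5 evexomostat xenografts was sequenced, and samples were grouped by their titles. Per the submitters' processing notes, bcl2fastq 2.17, STAR 2.7.5c, featureCounts, Subread and edgeR and the builds GRCh37 and hg19 were named, with no roles. Annotation, strand use and the handling of mouse and multiply matching reads are not given in the sources used here. The authors deposited raw counts per gene symbol, and the RPM values the authors deposited are these counts scaled to the same total in each column. The authors' deposited comparison table holds log2 fold changes, p-values and, as signal per group, the mean RPM.

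Counts were tested with edgeR 4.0.16 in R 4.3.3 (quasi-likelihood F-test, TMM factors, filterByExpr with a minimum count of 10 and total of 15, no covariates), with Benjamini-Hochberg adjustment over 16653 genes and a threshold of 0.05. CPM uses TMM-scaled library sizes. Floors of 3 counts cover counting error only. Intervals come from the edgeR fit, which estimates the spread between these samples. The members and lists were chosen with earlier results of these data known. All members were named, and in each list the genes past the threshold, those with the smallest p and the most abundant ones, of which 1 is not reported here though the list counts hold it. Same-numbered libraries are not said to be paired, and their deviations from the group means correlated at -0.27 to 0.07. No 2 libraries agreed within sampling noise (smallest chi-square per degree of freedom 16.6). Scripts were tested on simulated data. Alternatives were other scalings, filters, units and tests (DESeq2 1.42.0, limma 3.58.1), a replicate block and leaving out each library. Coordinates and gene order are RefSeq's on GRCh38.p14, and transcripts come from GENCODE release 29 on GRCh38.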

Additional observations from a re-analysis of the deposited data

Results flagged for a closer look

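Of 61 groups of libraries looked at (1 gene in 1 group each), 10 held a library far from the rest of its group by Dixon's gap test, whose 95% critical value chance passes in about 1 in 20 groups. Vehicle 001 was far above the other vehicle libraries for PSMB9 (0.167 RPM, from 4 counts, against 0 to 0.0351 RPM), PSME1 (551.6 CPM against 226.8 to 301.7), PSMB10 (129.4 CPM against 40.2 to 53.7), PSME2 (507.1 CPM against 240.8 to 310.6) and PSMB6 (196.4 CPM against 58.0 to 70.9). The same library has the lowest scaling factor and the largest share of counts in its top genes, and the part of these in the proteasome values was not tested.

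Evexomostat 002 was far below its group for PSMB6 (56.5 CPM against 77.6 to 82.9). Evexomostat 003 was far below its group for PSME3 (73.2 CPM against 117.7 to 129.7) and far above it for HLA-DRA (1.82 CPM against 0.498 to 0.683). Vehicle 006 was far above its group for TAPBPL (123.6 CPM against 47.8 to 70.7). Vehicle 003 was far below its group for IFNAR2 (62.8 CPM against 70.8 to 74.2).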

How the results depend on the processing

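In 22 alternative analyses 0 members were called. B2M stayed negative (-0.67 to -0.25, adjusted p 0.195 to 0.594), as did HLA-B (-0.38 to -0.18). Of 591 single-gene values 523 kept direction and side of the threshold, 17 newly passed (ERAP1, IFNAR2, ULBP2, NFKB1, RELA and CTSS), 14 (all IFNGR1) were lost and 37 changed sign, none of these past the threshold. HLA-C was 0.0283 with upper quartile scaling, 0.0751 with quality weights, 0.0921 on log2(RPM + 1), 0.0923 on log2(RPM + 0.1), 0.19 with the replicate block, 0.18 without it on the same 8 libraries, and -0.083 to 0.0648 leaving out single libraries. In the same way TAP2 was -0.0225 with quality weights, -0.0299 with the replicate block and -0.0489 without it (-0.0878 to 0.11 leaving out libraries), and TAPBP 0.0037 on log2(RPM + 0.1) (-0.27 to -0.0617). PSMB10 was 0.0134 with weights, 0.18 with the block and 0.19 without (-0.38 to 0.0762). PSME2 was 0.0226 with weights, 0.0134 and 0.0135 on RPM, and 0.16 with and without the block (-0.18 to 0.0700). PSMB6 was 0.22 with weights, 0.031 and 0.0321 on RPM, and 0.29 with and without the block (-0.30 to 0.22). PSME1 was 0.0436 with the block and 0.0371 without (-0.30 to 0.0057). PSME3 was -0.0765 with the block and -0.0448 without. The cause was not tested.

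All calls were 101 (29 higher, 72 lower), 107 with the replicate block, 649 (200, 449) with DESeq2, 1059 (384, 675) with quality weights and 733 (225, 508) on the 8 libraries without block. Lower calls were 42 with upper quartile scaling, 31 on log2(RPM + 1) and 30 on log2(RPM + 0.1). Leaving out single libraries gave 1 to 865 calls, 1 to 328 higher and 0 to 537 lower: 865 without vehicle 001, 52, 46 and 56 without vehicle 003, 004 and 007, and 2, 46, 28, 1 and 3 without evexomostat 002, 003, 004, 005 and 007. Higher calls were 28.7% of the total, 40% with upper quartile scaling and 58.1% and 55.9% on RPM, where the median of all genes was 0.08 and 0.10 in place of -0.04. The numbers do not pair the samples. TAP1, PSMB8, PSMB9 and HLA-E had at most 15 counts in any library, too few to compare the groups.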
